A study of Homo sapiens with 18 samples.

Results

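The comparison pooled the effect of low oxygen over every exposure time in human embryonic stem cells (hESCs). All 18 arrays of the series entered it, 9 from hypoxia (4% O2) and 9 from normoxia (21% O2), and each hypoxia array was set against the normoxia array of the same hESC line and the same time point. This gave 9 pairs, from the lines H9, HS360 and HS401 at 2 h, 24 h and 7 d. The value of a gene is its mean within-pair difference, hypoxia minus normoxia, on the log2 scale of the array intensity, so that a difference of 1 is a doubling. The question was which genes moved the same way in low oxygen whatever the length of the exposure.

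All cells grew without feeders on Matrigel in mTeSR1 medium, while the stock cultures of the lines had been kept on human foreskin fibroblasts. The arrays were Human Exon arrays, whose probes lie along the exons of genes, and 23536 features were measured, of which 20727 carried a gene name. Each line gave 1 array per oxygen level and time point, so the 9 pairs share 3 lines and the p-values measure the spread between these pairs. The median intensity per array ran from 131.6 to 160.9. On 5 arrays the log2 lower quartile was 5.64 to 5.70, on the other 13 it was 5.89 to 6.17, and in 3 pairs (H9 at 2 h and 24 h and HS401 at 2 h) only 1 of the arrays was low. Of 9 measured markers of undifferentiated hESCs, 8 lay above the array median on all 18 arrays. The mean level of the 9 was 10.19 to 10.73 in hypoxia and 10.27 to 10.77 in normoxia. The exception was POU5F1 (OCT4), which was below the median on some arrays, as in H9 normoxia at 7 d (6.43 against a median of 7.22). Of 10 fibroblast markers, 5 lay above the array median on all arrays, their mean level was 7.75 to 10.19 in hypoxia and 7.92 to 10.40 in normoxia, and their within-pair difference ran from -0.31 to 0.80 (mean 0.03, higher in 3 of 9 pairs); their part in the results was not tested. In such bulk RNA, fewer cells of a type and less RNA per cell cannot be told apart.

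Cells sense oxygen through prolyl hydroxylases (EGLN1 to EGLN3), which mark the alpha subunits of the hypoxia-inducible factors (HIFs) for destruction when oxygen is plentiful. In low oxygen the alpha subunits persist, pair with ARNT and bind a short DNA core near their target genes. Known targets in many cell types raise glucose uptake and glycolysis, hold pyruvate out of the mitochondria, restrain mTOR signalling and feed back on oxygen sensing itself.

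Over the 9 pairs 13 features rose in hypoxia at an adjusted p under 0.05 (0.0552% of 23536) and none fell (0%). All 13 were named genes, and in each the hypoxia array was the higher one of all 9 pairs. By function they were the glucose transporter SLC2A1, the glycolytic enzymes HK2, PFKFB3 and PFKFB4, the pyruvate dehydrogenase kinase PDK1, the mTOR inhibitor DDIT4, the sterol regulator INSIG2, the transcriptional repressor BHLHE40, the histone demethylases KDM3A and KDM7A, the mitophagy receptor BNIP3L, the ribosome quality control factor ANKZF1 and the scaffold protein PPFIA4. Their mean differences ran from 0.49 to 1.53. Among the features that were lower on average, the smallest adjusted p was 0.202. At an unadjusted p under 0.05 limma gave 844 features higher and 529 lower, 1373 in all, where 1177 would be expected by chance.

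The number of calls depended on single pairs and on the pairing itself. Without the HS360 pair at 7 d 1 feature rose, without HS401 at 24 h or at 7 d 2, without H9 at 2 h or at 24 h 3, without H9 at 7 d 4, without HS360 at 24 h 5, without HS401 at 2 h 10 and without HS360 at 2 h 15. By line, 7 rose without HS360 and none without H9 or HS401, by time 14 rose without 2 h and none without 24 h or 7 d, and with 1 value per line none passed. The fits with no call had 811 to 3310 features at an unadjusted p under 0.05 in limma. The fit without the pairing gave 5. In each of these fits the 13 genes kept a positive mean difference, the lowest being 0.45 among the fits without 1 pair. Being higher in hypoxia in every pair fixed this sign in advance, so it is no check on the lost calls.

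**Figure D1:**
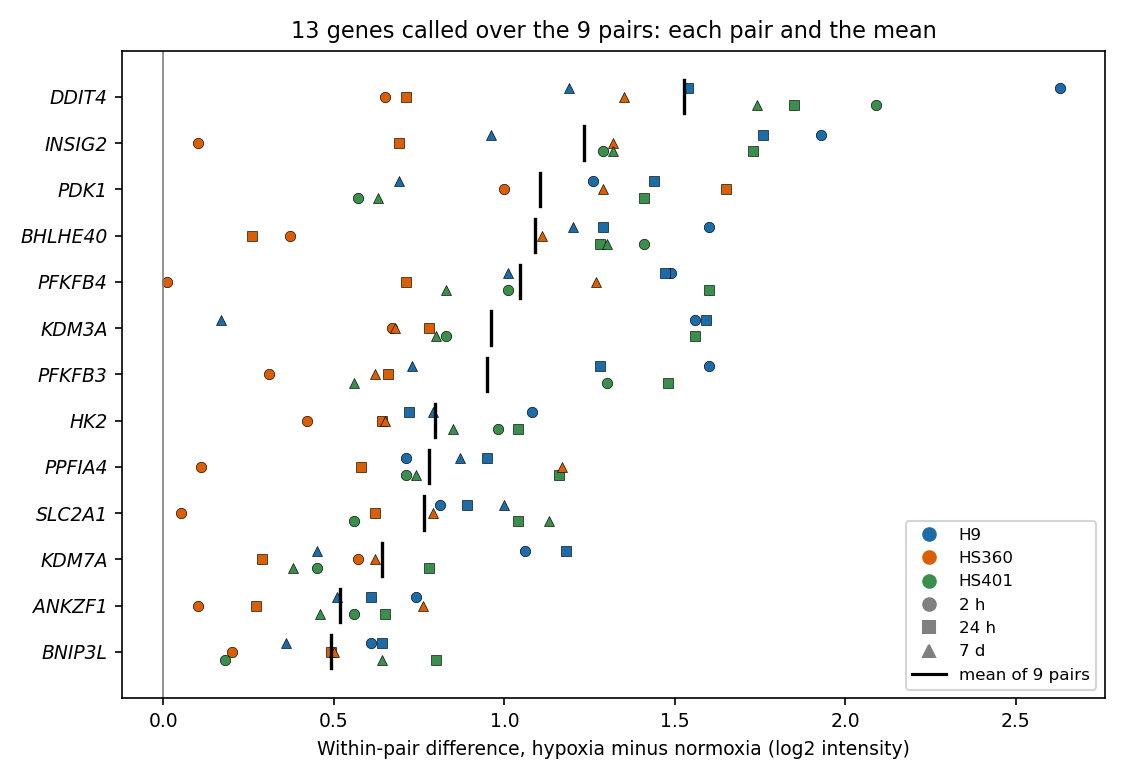
Within-pair differences of the 13 genes that rose, with the log2 difference (hypoxia minus normoxia) on the horizontal axis and 1 row per gene. Each point is a pair (colour, hESC line; shape, exposure time) and the black bar is the mean of 9 pairs; all points lie above 0, from 0.01 (PFKFB4, HS360 at 2 h) to 2.63 (DDIT4, H9 at 2 h).

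The promoters of the 4 genes with the smallest p (HK2, PDK1, DDIT4 and BHLHE40) are shown because the HIF core sequence, ACGTG or its variant with a leading G, GCGTG, can be read in them. They are RefSeq windows of the GRCh38.p14 build, 250 bases before to 50 after a transcription start, printed on the strand of the gene, and the window with the most matches was taken where a gene had several. Capitals mark the core ACGTG, the variant GCGTG, and the letters these leave on the other strand, which read CACGT for the first and CACGC for the second. Where the first overlaps its own reverse complement, as CACGTG, both strands are counted.
HK2, chr2:74834920-74835219, + strand: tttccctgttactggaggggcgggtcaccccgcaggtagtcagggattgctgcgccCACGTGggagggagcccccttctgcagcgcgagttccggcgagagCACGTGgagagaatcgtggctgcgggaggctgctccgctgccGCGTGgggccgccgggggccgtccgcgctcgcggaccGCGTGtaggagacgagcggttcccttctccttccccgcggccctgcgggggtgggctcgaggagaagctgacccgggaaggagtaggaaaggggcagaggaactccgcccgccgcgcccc
PDK1, chr2:172555840-172556139, + strand: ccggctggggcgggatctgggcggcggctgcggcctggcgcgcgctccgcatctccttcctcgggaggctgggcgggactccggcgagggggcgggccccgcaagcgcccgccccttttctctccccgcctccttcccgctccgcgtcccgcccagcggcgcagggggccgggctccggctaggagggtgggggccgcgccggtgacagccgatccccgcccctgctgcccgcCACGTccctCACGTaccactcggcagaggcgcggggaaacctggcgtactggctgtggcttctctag
DDIT4, chr10:72273674-72273973, + strand: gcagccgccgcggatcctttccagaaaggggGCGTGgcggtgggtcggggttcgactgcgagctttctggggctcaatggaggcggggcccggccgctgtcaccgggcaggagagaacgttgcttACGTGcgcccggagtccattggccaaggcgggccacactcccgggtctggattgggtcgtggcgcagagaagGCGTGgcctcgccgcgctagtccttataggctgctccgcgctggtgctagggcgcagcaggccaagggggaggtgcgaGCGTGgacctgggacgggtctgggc
BHLHE40, chr3:4979187-4979486, + strand: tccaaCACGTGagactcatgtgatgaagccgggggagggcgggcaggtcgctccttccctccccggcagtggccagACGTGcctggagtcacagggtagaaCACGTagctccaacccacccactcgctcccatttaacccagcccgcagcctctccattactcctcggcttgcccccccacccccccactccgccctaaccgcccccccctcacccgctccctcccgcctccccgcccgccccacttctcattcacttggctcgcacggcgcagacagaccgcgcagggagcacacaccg

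HK2 held 6 matches, among them 2 CACGTG runs, PDK1 2 matches close before its start, and DDIT4 and BHLHE40 4 each. Of the 13 genes 11 had a window in the table, and a core was found in all 11, against 52.4% of the 27305 genes with a window. The 27305 outnumber the 23536 features of the array and include genes it did not measure, so the sets are unlike. ACGTG was found in 8 of the 11 (24.9% of all genes), GCGTG in 9 (40.6%) and CACGTG in 4 (8.77%). A match is a run of letters and does not show binding, and the shares are a description.

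HK2 (hexokinase 2), which traps glucose in the cell as glucose phosphate, had the smallest adjusted p. Its log2 level was 8.98, 9.19 and 9.50 in normoxia and 9.40, 10.13 and 10.45 in hypoxia (lowest, median and highest of 9 arrays). The HS360 hypoxia array at 2 h was the lowest of the hypoxia arrays, and the other 8 lay above every normoxia array. HK2 rose by 0.80 (standard error 0.08, 1.74-fold, adjusted p = 0.00465), with pair values from 0.42 to 1.08. The means were 0.83 at 2 h, 0.80 at 24 h and 0.76 at 7 d. The difference between 7 d and 2 h was -0.06 with a 95% interval from -0.47 to 0.35. HK2 passed the adjusted threshold in each of the 9 fits that left out 1 pair, and in 21 of all 28 alternative fits. It was the only called gene to pass in all 9. PDK1 passed in 8 of them, DDIT4 in 6, BHLHE40 in 3 and each of the other called genes in 0 to 2. HK2P1, an HK2 pseudogene that shares sequence with it, stood at 0.50 (standard error 0.08, adjusted p = 0.0764), and the array cannot be assumed to keep them apart.

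Upstream of hexokinase, SLC2A1 (GLUT1) carries glucose into the cell. It measured 11.27 to 11.78 in normoxia (median 11.56) and 11.71 to 12.71 in hypoxia (median 12.32), and the groups overlapped only through the HS360 hypoxia array at 2 h. SLC2A1 rose by 0.77 (standard error 0.10, adjusted p = 0.0229), with a difference of 0.05 in HS360 at 2 h and 0.56 to 1.13 in the other 8 pairs. Its means were 0.47, 0.85 and 0.97 at 2 h, 24 h and 7 d.

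PFKFB3 and PFKFB4 make and break the fructose bisphosphate that activates phosphofructokinase. PFKFB4 was 7.77 to 8.65 in normoxia (median 8.12) and 8.66 to 9.75 in hypoxia (median 9.06), without overlap. The gap of 0.01 is the rounding step of the values, and both arrays that border it are those of HS360 at 2 h. Levels that did not overlap between the 9 hypoxia and 9 normoxia arrays were found for only 3 features in all (0.0127%), namely PFKFB4, ANKZF1 and ANKRD37, each higher in hypoxia. In its pairs PFKFB4 rose by 1.04 (standard error 0.14, adjusted p = 0.0264), with 0.01 in HS360 at 2 h and 0.71 or more in the other 8 pairs. PFKFB3 rose by 0.95 (standard error 0.14, adjusted p = 0.0353), and its means were 1.07, 1.14 and 0.64 at the 3 times.

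PDK1 phosphorylates and inhibits pyruvate dehydrogenase and so keeps pyruvate out of the citric acid cycle. On the arrays PDK1 was 7.10, 8.83 and 9.08 in normoxia and 8.10, 9.59 and 10.52 in hypoxia (lowest, median and highest). HS360 had the lowest PDK1 levels under both oxygen conditions at each time point, so that the groups overlapped, yet its pairs were not the smallest. PDK1 rose by 1.10 (standard error 0.12, 2.15-fold, adjusted p = 0.00792), by 1.65 and 1.29 in the HS360 pairs at 24 h and 7 d against 1.41 and 0.63 in HS401. Its line mean in HS360, 1.31, was the highest of the lines, whereas in the other 12 genes HS360 had the lowest.

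DDIT4 (REDD1), an inhibitor of mTOR complex signalling, had the highest mean difference. Its log2 level was 7.87, 8.30 and 8.98 in normoxia and 8.58, 10.04 and 10.52 in hypoxia. The HS360 hypoxia arrays at 2 h and 24 h were the ones within the normoxia range. DDIT4 rose by 1.53 (standard error 0.18, 2.88-fold, adjusted p = 0.0149). Its line means were 1.79 (H9), 0.90 (HS360) and 1.89 (HS401), and its time means 1.79, 1.37 and 1.43.

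BHLHE40 (DEC1), a repressor that also acts in the circadian clock, measured 7.31 to 8.59 in normoxia (median 7.99) and 8.42 to 9.59 in hypoxia (median 9.06). It rose by 1.09 (standard error 0.13, adjusted p = 0.0176), by 0.37 and 0.26 in HS360 at 2 h and 24 h and by 1.11 or more in the other 7 pairs. The normoxia levels of BHLHE40 were themselves highest in HS360 at 2 h and 24 h, 8.59 and 8.31. INSIG2, which holds back the sterol-sensing transcription factors in the endoplasmic reticulum, rose by 1.23 (standard error 0.16, adjusted p = 0.0229), with pair values from 0.10 in HS360 at 2 h to 1.93 in H9 at 2 h.

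**Figure D2:**
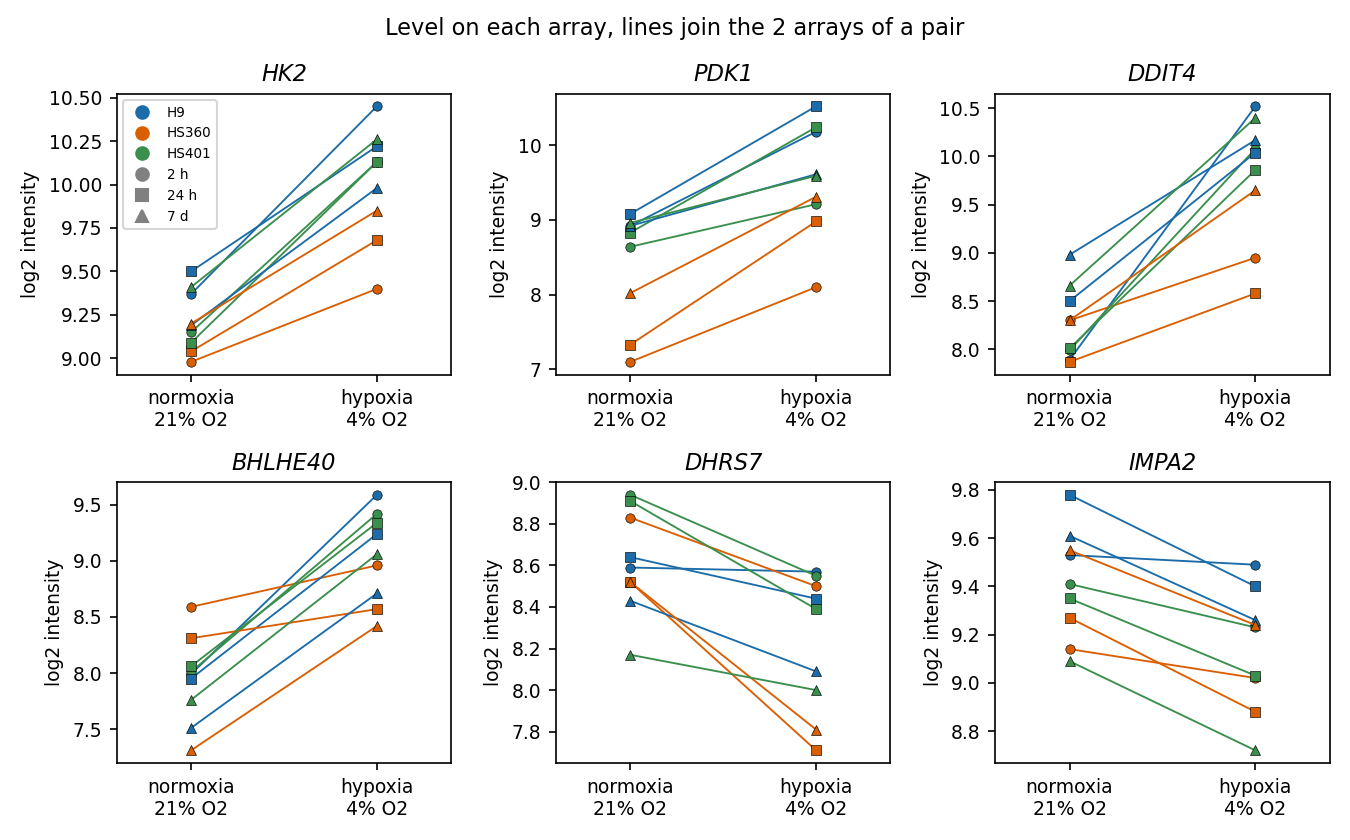
Log2 intensity on each of the 18 arrays for 6 genes, 1 panel per gene with its own vertical axis that does not start at 0; a line joins the normoxia and hypoxia arrays of a pair (colour, hESC line; shape, time). HK2, PDK1, DDIT4 and BHLHE40 go up in all 9 pairs, and DHRS7 and IMPA2, which did not pass the adjusted test, go down in all 9 by means of 0.39 and 0.27.

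The remaining called genes act on chromatin, mitochondria, ribosomes and membranes. KDM3A and KDM7A are JmjC-domain histone demethylases, enzymes that use oxygen themselves. KDM3A rose by 0.96 (standard error 0.14, adjusted p = 0.0439), with 1.02, 1.31 and 0.55 at 2 h, 24 h and 7 d, and KDM7A by 0.64 (standard error 0.10, adjusted p = 0.0439), with 0.69, 0.75 and 0.48. KDM7A kept its call in 6 of the 27 alternative fits that held it and in none of the 9 fits without 1 pair. PPFIA4, a liprin known from synapses, rose by 0.78 (adjusted p = 0.0227). BNIP3L (NIX), a mitophagy receptor, rose by 0.49 (adjusted p = 0.0471), from 0.18 to 0.80 in the pairs. ANKZF1 was 7.77 to 8.10 in normoxia (median 8.05) and 8.17 to 8.77 in hypoxia (median 8.56), and rose by 0.52 (standard error 0.08, adjusted p = 0.0436).

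The 13 genes had a positive mean at each exposure time, which follows from their being higher in every pair. Within a gene the highest of the 3 time means was 1.08 to 2.38 times the lowest, and it fell at 24 h in 7 genes, at 7 d in 4 and at 2 h in 2. Over all features limma's F test found no difference of the oxygen effect between the times (smallest adjusted p = 0.625, 955 features at an unadjusted p under 0.05) and none between the lines (smallest adjusted p = 0.909, 753 features). Within the called genes, PDK1 and SLC2A1 had an unadjusted p under 0.05 in limma for time (0.0293 and 0.0480) and BHLHE40 and DDIT4 for line (0.0175 and 0.0396). In PDK1 the value at 24 h exceeded that at 2 h by 0.56 (95% interval 0.08 to 1.03) and that at 7 d by 0.63 (interval of 7 d minus 24 h from -1.10 to -0.16). The DDIT4 value of HS360 was below that of H9 by 0.88 (interval of HS360 minus H9 from -1.68 to -0.09). These intervals are not adjusted for the number of genes.

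In HS360 the pair at 2 h was the lowest of the 9 in 8 of the 13 genes. The median over the 13 genes was 0.31 in that pair and 0.64 in HS360 at 24 h, against 0.79 in HS360 at 7 d. In H9 it was 1.26, 1.28 and 0.79 at 2 h, 24 h and 7 d, and in HS401 0.83, 1.28 and 0.80. The medians of the 3 lines thus lay within 0.01 of each other at 7 d and apart at 2 h. Single genes could still differ between the lines at 7 d, as KDM3A did with 0.17 (H9), 0.68 (HS360) and 0.80 (HS401). The pairs with only 1 array of low lower quartile were H9 at 2 h (hypoxia minus normoxia -0.26 in the quartile), H9 at 24 h (-0.35) and HS401 at 2 h (0.26), and neither array was low in any HS360 pair. With the quartile difference as a covariate all 13 genes kept their call, and without the 3 pairs none did (lowest adjusted p from limma of 0.0782). All 13 stayed above 0 without them, which their sign in all 9 pairs fixed. The median of all features was -0.15 to 0.14 across the pairs.

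**Figure D3:**
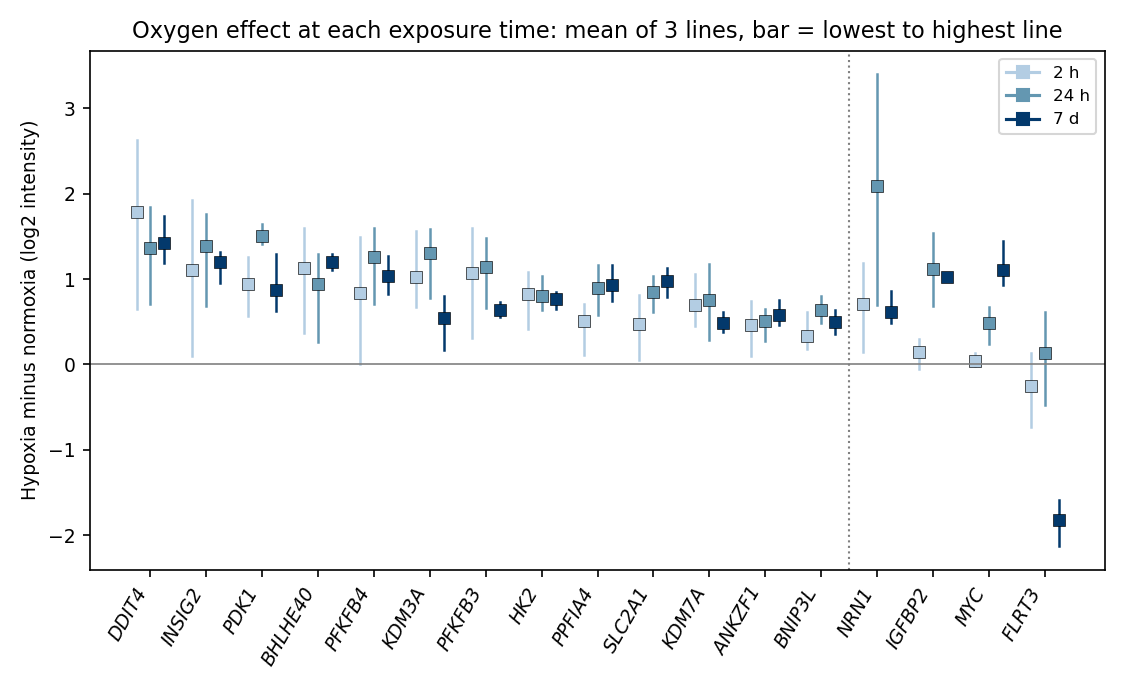
Mean within-pair log2 difference at 2 h, 24 h and 7 d (squares, mean of 3 lines; bars, lowest to highest line) for the 13 genes that rose, left of the dotted line, and for NRN1, IGFBP2, MYC and FLRT3 on the right. The 13 genes lie above 0 at each time, whereas MYC goes from 0.04 at 2 h to 1.10 at 7 d and FLRT3 reaches -1.82 at 7 d.

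A wider group of features had one direction in all 9 pairs. There were 132 that were higher in every pair (0.561% of all) and 66 that were lower in every pair (0.28%); 8 and 5 of these carried no name. The higher features had a median difference of 0.31 and reached 1.53, and 25 were past a fold change of 1.5, whereas the lower ones had a median of -0.18, reached -0.39, and none was past that fold. With the thresholds of the study (p under 0.01 before adjustment, over 1.5-fold) 42 features were higher (0.178%) and none lower (0%), and 25 of the 42 were higher in all 9 pairs. By time means alone, 3134 features (13.3%) were above 0 at all 3 times and 2619 (11.1%) below.

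**Figure D4:**
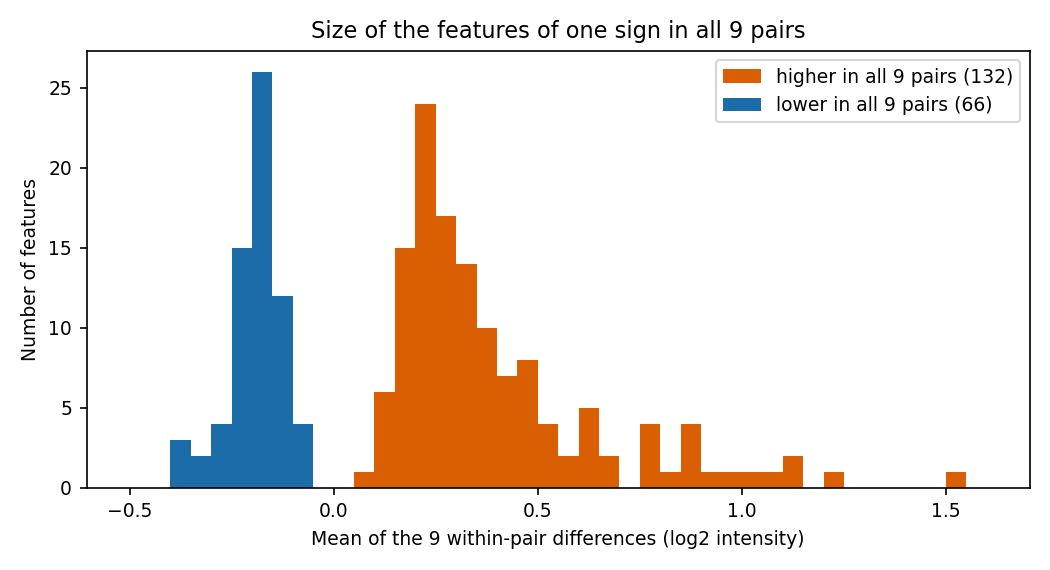
Number of features by mean within-pair log2 difference, among the 132 that were higher in all 9 pairs and the 66 that were lower in all 9. The lower features end at -0.39, and the higher ones extend to 1.53.

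Several genes that were higher in all 9 pairs did not pass the adjusted test. NRN1 (neuritin), a neurite growth protein, had the highest mean difference of these, 1.14 (standard error 0.28, adjusted p = 0.316). Its level was 5.53 to 6.27 in normoxia (median 6.02) and 6.01 to 9.54 in hypoxia (median 6.81), with a single pair, HS401 at 24 h, at 3.40 and H9 at 24 h at 2.16. BHLHE41 (DEC2), the paralogue of BHLHE40, stood at 0.89 (adjusted p = 0.111), with 0.01 in HS360 at 2 h and 1.79 in HS401 at 24 h. PGK1, a glycolytic kinase that makes ATP, stood at 0.68 (adjusted p = 0.0989) and PPP1R3C, which brings a phosphatase to glycogen, at 0.81 (adjusted p = 0.139). ANKRD37, a small ankyrin repeat protein, stood at 0.64 (adjusted p = 0.0789), with normoxia levels of 6.63 to 7.29 and hypoxia levels of 7.35 to 7.98.

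EDNRB, the type B endothelin receptor, stood at 0.69 (standard error 0.11, adjusted p = 0.0764), with 0.29, 0.74 and 1.03 at 2 h, 24 h and 7 d, and the value at 7 d exceeded that at 2 h by 0.73 (95% interval 0.27 to 1.19, adjusted p = 0.831 over all features). The other genes of this kind were CFAP96 (0.87), ARRDC3 (0.86), FAM162A (0.76), A2ML1 (0.62), VLDLR (0.62) and MT1G (0.59), with adjusted p between 0.0764 and 0.362.

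The genes that were lower in all 9 pairs had small differences. DHRS7, a short-chain dehydrogenase, was 8.17, 8.59 and 8.94 in normoxia and 7.71, 8.39 and 8.57 in hypoxia (lowest, median and highest), and its mean difference was -0.39 (standard error 0.08, adjusted p = 0.202). The difference was -0.02 in H9 at 2 h and -0.81 in HS360 at 24 h. IMPA2, an inositol monophosphatase, stood at -0.27 (standard error 0.06, adjusted p = 0.202), with -0.11 at 2 h, -0.36 at 24 h and -0.34 at 7 d and line means between -0.26 and -0.29. DOLK (dolichol kinase), needed for protein glycosylation, was the most even of them, from -0.14 to -0.45 in the pairs around a mean of -0.25 (adjusted p = 0.234). SLC1A5, a glutamine transporter, stood at -0.24 and PNP (purine nucleoside phosphorylase) at -0.26. The others were PAMR1 (-0.39), SPIC (-0.37), PHLDB2 (-0.34), TST (-0.30), FJX1 (-0.27), ARMCX2 (-0.25) and SLC61A1 (-0.25). SPIC measured only 3.88 to 4.42 in normoxia and 3.55 to 4.00 in hypoxia, below the lower quartile of every array. The levels of each of these 12 genes overlapped between hypoxia and normoxia.

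Gene lists were read beside all features, of which 50.6% had a mean difference above 0 and whose median was 0.0011. Of all features 0.0552% rose at the adjusted threshold, 0.178% were higher past the study's thresholds and 0.561% were higher in all 9 pairs. The lists were not tested as sets. Of 20 measured genes of glucose uptake and glycolysis, 19 were above 0, 4 rose at the adjusted threshold, 5 were past the study's thresholds and 9 were higher in all 9 pairs, with a median of 0.31. The exception was PFKM, a phosphofructokinase subunit, at -0.08. The list median was above 0 in every pair, from 0.03 in HS360 at 2 h to 0.68 in HS401 at 24 h. GAPDH, a glycolytic gene often used as a reference, stood at 0.01.

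Of 38 HIF-responsive genes outside glycolysis, 36 were above 0, 6 rose at the adjusted threshold, 16 were past the study's thresholds and 14 were higher in all 9 pairs, with a median of 0.49. The list median was 0.30 at 2 h, 0.60 at 24 h and 0.51 at 7 d, and the line medians were 0.64 (H9), 0.23 (HS360) and 0.54 (HS401). It was -0.01 in HS360 at 2 h, the only pair in which it was not above 0. BNIP3, a mitophagy receptor related to BNIP3L, stood at 0.88 with 8 of 9 pairs higher (adjusted p = 0.162), the exception being -0.06 in H9 at 7 d. ADM (adrenomedullin), a vasodilator peptide, stood at 0.67 with 8 of 9 higher (adjusted p = 0.301). Many members of this list were known from results of the same samples, so their direction is not independent evidence.

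The genes of oxygen sensing showed no common direction. Of 16 measured, 6 were above 0, none passed either threshold, and the median was -0.03 (0.022 without 7 d). EGLN3 (PHD3) stood at 0.44 and was higher in all 9 pairs (adjusted p = 0.194), and EGLN1 (PHD2) at 0.36 with 8 of 9 higher (adjusted p = 0.392). HIF1A, singled out after its values were seen, stood at -0.27 (standard error 0.08, adjusted p = 0.538), with 8 of 9 pairs lower and -0.12, -0.39 and -0.31 at 2 h, 24 h and 7 d. Its partner ARNT stood at 0.09 and its relative EPAS1 at -0.11.

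Of 20 JmjC histone demethylases 16 were above 0 and 4 were higher in all 9 pairs, with a median of 0.12, and KDM3A and KDM7A were the only ones past a threshold. Of 23 genes of oxidative phosphorylation 7 were above 0 and none passed, with a median of -0.04. NDUFB3, a subunit of respiratory complex I, stood at 0.22 (adjusted p = 0.642) and ATP5F1A, of the ATP synthase, at -0.15 (adjusted p = 0.834). All 9 metallothioneins measured, small metal-binding proteins, were above 0 with a median of 0.39, but none passed the adjusted threshold and only MT1G was higher in all 9 pairs. Their medians were 0.13, 0.23 and 0.69 at 2 h, 24 h and 7 d, and since these genes are near-identical copies, their probes may share signal.

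In the next lists 1 member each rose. The lists share members: INSIG2 and DDIT4 here, and KDM3A above, were also counted among the HIF-responsive genes. Of the genes of pyruvate, lipid and amino acid fuel switching 8 of 14 were above 0, with a median of 0.03, and PDK1 was the only one that rose. In cholesterol synthesis 11 of 14 were above 0, with a median of 0.07, and INSIG2 was the only one that rose. Among genes of mTOR signalling and energy stress 10 of 15 were above 0, with a median of 0.06, and DDIT4 was the only one that rose. PRKAA2, a catalytic subunit of the energy sensor AMPK, was the other member that was higher in all 9 pairs, at 0.45 (standard error 0.08, adjusted p = 0.111). It was singled out after its values were seen. PRKAA2 passed only with the line as a fixed block, among features above the median level, with array weights and with the lower quartile as a covariate. Those fits called 20 to 51 features higher, against 13 over the 9 pairs.

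**Figure D5:**
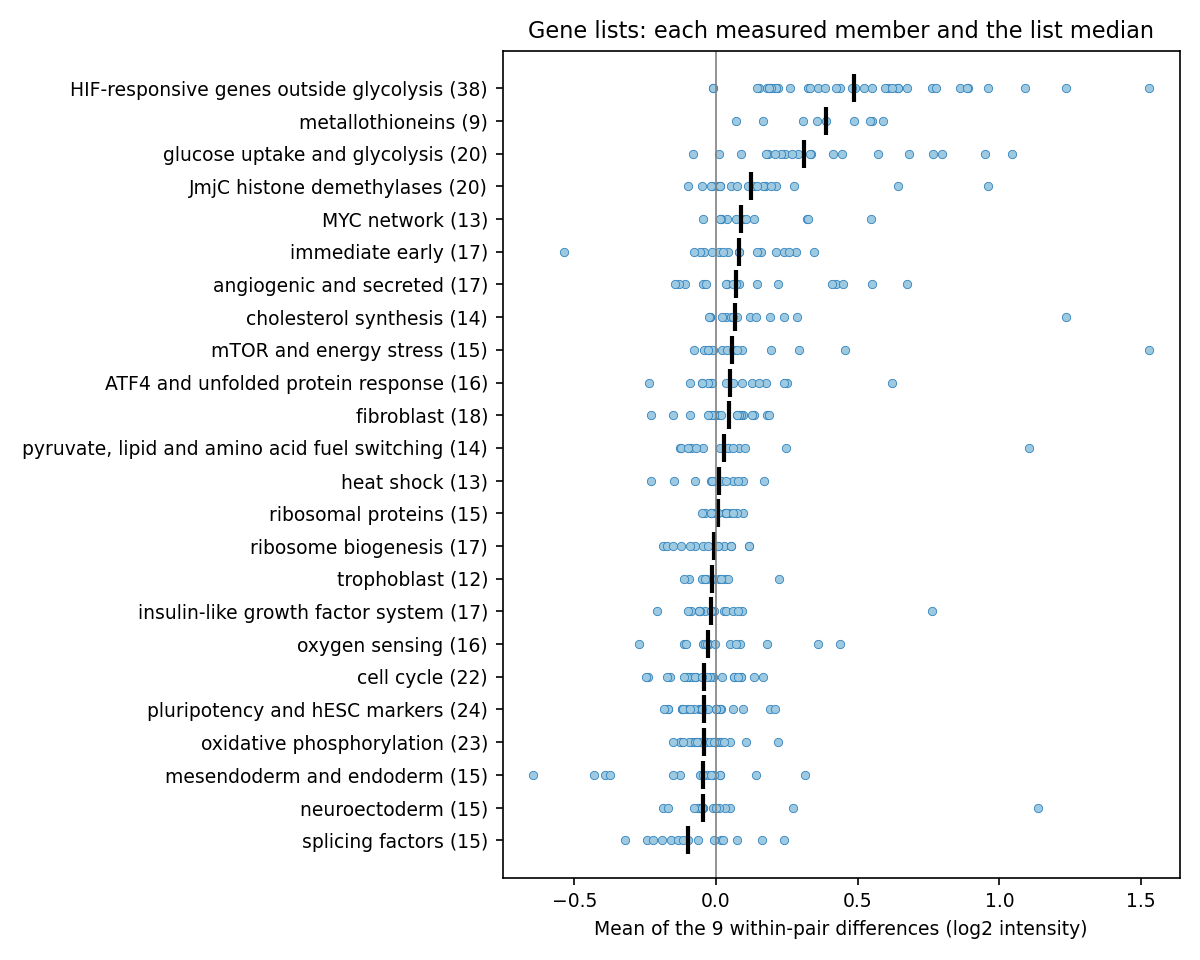
Mean within-pair log2 difference of each measured member of 24 gene lists (points; the number measured is in brackets) with the list median (black bar). HIF-responsive genes outside glycolysis have a median of 0.49, metallothioneins 0.39 and glycolysis 0.31, and the others lie between -0.10 and 0.12.

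Among the genes named by the study several had uneven time means, and those described here did not pass the adjusted test over the 9 pairs. The study named them for changes on these same arrays, so their differences between times are not independent evidence. IGFBP2, an insulin-like growth factor binding protein, stood at 0.76 with 8 of 9 pairs higher (standard error 0.15, adjusted p = 0.142), with time means of 0.15, 1.12 and 1.02. MYC, a transcription factor that drives growth, stood at 0.55 with 8 of 9 higher (adjusted p = 0.382), and its value at 7 d exceeded that at 2 h by 1.06 (95% interval 0.63 to 1.49, adjusted p = 0.659). With the line as a fixed block in place of the pairs, a fit that called 26 features, both IGFBP2 and MYC passed, and IGFBP2 also passed with a term for time, without 2 h and among features above the median level. FLRT3, a membrane protein of cell adhesion, stood at -0.64 (adjusted p = 0.796), from -0.25, 0.14 and -1.82, and was lower by 1.59 to 2.13 in the 3 pairs at 7 d. PAX6, an early neural transcription factor, was 0.10 to 0.36 higher in all 3 lines at 24 h and 0.24 to 1.57 lower in all 3 at 7 d, with a difference between these times of -1.09 (interval from -1.71 to -0.48, adjusted p = 0.789). Its level at 24 h was low, 5.26 to 5.99 in hypoxia and 5.16 to 5.69 in normoxia. Except on the H9 hypoxia array, it lay below the lower quartile of the array.

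Of 24 pluripotency and hESC markers 9 were above 0 and none passed a threshold or had one sign in all 9 pairs, with a median of -0.04. SOX2 measured 9.95 to 11.13 in normoxia and 9.91 to 10.76 in hypoxia and had a mean difference of 0.0033 (95% interval from -0.17 to 0.18). POU5F1 (OCT4) measured 6.43 to 8.66 in normoxia and 6.91 to 7.82 in hypoxia. It stood at -0.06 (interval from -0.44 to 0.32), with pair values from -1.20 to 0.56. Since it has several processed pseudogenes its signal may be shared. LEFTY2, an inhibitor of NODAL signalling, stood at 0.21, and the developmental transcription factors HEY2 and MSX2 at 0.22 and -0.11, with adjusted p between 0.894 and 0.999. Their time means at 2 h, 24 h and 7 d were -0.13, -0.07 and 0.82 for LEFTY2, 0.13, -0.12 and 0.64 for HEY2 and -0.0033, 0.30 and -0.64 for MSX2, and at 7 d each had one sign in all 3 lines. LEFTY2, HEY2 and MSX2 too were named by the study from these arrays, so this sign is not independent evidence.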

How the data were processed

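The 18 exon arrays measured total RNA of H9, HS360 and HS401 cultures. Per the study's methods the authors made the intensity values with RMA in Chipster after mapping probes to Entrez genes with a custom CDF, and versions and build are not given in the sources used here. The deposited intensities are linear and give log2 values rounded to 0.01, which were analysed. RMA is meant to equalise the arrays, so levels are relative to the whole array. The deposited values were not fully equal between arrays, with log2 medians from 7.04 to 7.33. Of 23536 features 2809 had no name in the tables used, and were tested unnamed, and no feature was named NANOG.

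Limma 3.58.1 in R 4.3.3 tested the mean of the 9 within-pair log2 differences against 0 (two-sided, eBayes, 8 residual and 4.11 prior degrees of freedom, Benjamini-Hochberg over all features, threshold 0.05). F tests of time and of line used both terms (4 residual degrees of freedom). No filter was applied. The study's methods name limma and no block. Pairs come from the labels (same line, same time); after removal of group means, pair members correlated above 0.1 across features in 8 of 9 pairs (-0.00534 to 0.776). The labels do not say whether cultures were otherwise separate.

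The comparison, the 24 gene lists and the alternatives were chosen with earlier results of these data known. Named were up to 25 called genes and up to 12 genes of one sign in all 9 pairs per direction (leaving out LOC loci, pseudogenes, small RNAs, olfactory receptors and unnamed features), up to 6 members of a list past a threshold or otherwise 2, and genes the study names. Promoters came from a RefSeq table (GRCh38.p14). Scripts were tested on simulated data. The number of arrays limits the precision.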

Additional observations from a re-analysis of the deposited data

Results flagged for a closer look

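Of 70 named genes tested for a pair far from the others, 4 had one, and chance gives about 1 in 20. MT1G, a metallothionein, was 1.79 higher on the log2 scale in HS360 at 7 d, against 0.88 for the next pair and 0.01 for the lowest. FJX1, a secreted kinase of the Golgi, was at -0.95 in H9 at 7 d, with the next pair at -0.44 and the highest at -0.02. SLC61A1, a molybdate transporter, was at -0.67 in HS360 at 7 d, with the next at -0.29 and the highest at -0.05. CCND1 (cyclin D1), which drives entry into the cell cycle, was at 0.13 in HS401 at 2 h, whereas the other 8 pairs lay between -0.16 and -0.42. None of these 4 genes passed the adjusted test over the 9 pairs (adjusted p from limma of 0.362, 0.634, 0.462 and 0.454).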

How the results depend on the processing

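The 13 genes that rose kept a positive mean difference in all 28 alternative fits in which they had a value. The lowest was 0.415, for BNIP3L without 24 h. Where a fit only dropped, weighted or averaged pairs, or changed how the spread was modelled, their sign in all 9 pairs fixed this outcome. The number called moved. It was 5 without the replicate block of line and time, 26 with the line as a fixed block in its place (12 of the 13 among them), 13 with the line as a random block, 0 with 1 value per line, 21 after a second quantile normalization, 6 with each array centred on its median, 40 among features above the median level, 20 with array weights, 51 with the lower quartile as a covariate and 0 without the 3 pairs with 1 low array (limma, 3801 at an unadjusted p under 0.05). Leaving out a line, a time or a pair gave 0 to 15. A term for time, added after the data were seen, gave 9, of which 6 were among the 13 and 3 (EDNRB, IGFBP2 and an unnamed feature) were not. Features called lower were 1 with array weights (DHRS7) and 2 with the lower quartile as a covariate (SNRPD2P1 and OR6B3), and 0 otherwise. At the study's thresholds 27 were higher above the median level and 30 to 74 when a line, time or pair was left out (74 without 2 h). Lower by the same thresholds were 2 with the line as a fixed block, 3 with 1 value per line, 6 with array weights, 1 with the covariate, 9 without the 3 pairs, 2 with a term for time, and 0 to 8 when a line, time or pair was left out. Features of one sign in all pairs were 38 lower with centred arrays, 1221 higher and 716 lower without the 3 pairs, and 319 to 1071 higher and 214 to 631 lower without a line or time, where fewer pairs make the rule easier to meet. The line interaction called 0 to 3 features without 1 pair, the 3 (SPAG11B, CHCHD2P9 and OR2H2) without H9 at 7 d. The replicate block changed no call of an interaction.

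Of the 24 list medians 13 took the other sign in a setting. Those that did not included glycolysis (0.22 to 0.35), HIF-responsive genes (0.385 to 0.57), JmjC demethylases (0.078 to 0.15) and metallothioneins (0.19 to 0.53). Without 7 d the medians of the immediate early, fibroblast and angiogenic lists were -0.092, -0.13 and -0.065 and those of splicing factors and oxygen sensing 0.0050 and 0.022. Of 1879 values of named genes 1621 kept direction and call, 192 lost a call, 36 gained one and 30 changed sign, the last in 12 genes that were not called. The 1621 include uncalled genes that stayed uncalled, and only the 13 called genes could lose a call. These kept theirs in between 6 of 27 fits (KDM7A) and 21 of 28 (HK2). When a line, time or pair was left out TWIST2 ran from -0.46 to 0.06, LOX from -0.052 to 0.41, DNAJA1 from -0.44 to 0.10, HSPA1A from -0.18 to 0.37, LEFTY2 from -0.10 to 0.38, RPL10 from -0.12 to 0.19, SRSF7 from -0.52 to 0.01, SRSF3 from -0.40 to 0.033, MSX2 from -0.32 to 0.15, PAX6 from -0.41 to 0.14, POU5F1 from -0.32 to 0.21 and SOX2 from -0.092 to 0.055. MSX2 was 0.018 with array weights, and SOX2 -0.0011 with centred arrays and -0.027 without the 3 pairs. Where no cause is given it was not tested. The 9 pairs from 3 lines limit how small a difference can be called.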

Other observations

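Other gene groups had no member called over the 9 pairs. Of 15 splicing factors 5 were above 0, with a median of -0.10, and SRSF7 and SRSF3, which bind exons during splicing, stood at -0.32 and -0.24 (adjusted p = 0.886 and 0.942). At 2 h and 24 h the list medians were 0.03 and -0.01, and at 7 d -0.13, and without 7 d the median was 0.0050. In the cell cycle list 8 of 22 were above 0, with a median of -0.04. PCNA, the sliding clamp of DNA replication, stood at -0.25 (adjusted p = 0.699), with -0.01, -0.19 and -0.55 at the 3 times. Of 13 genes of the MYC network 12 were above 0, with a median of 0.09, and MXI1, which competes with MYC for its partner MAX, stood at 0.32 with 8 of 9 pairs higher (adjusted p = 0.301).

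Immediate early genes, which respond within minutes to growth signals or stress, had list medians of -0.13, -0.05 and 0.57 at the 3 times, and 0.08 over the 9 pairs, where 12 of 17 were above 0, and -0.092 without 7 d. JUN stood at 0.34 (adjusted p = 0.778) and ANKRD1 at -0.54 (adjusted p = 0.642), the latter with 7 of 9 pairs lower. The fibroblast list had medians of -0.19, -0.08 and 0.38 at the 3 times and pair medians from -0.30 to 0.76, and was at -0.13 without 7 d. Among 15 ribosomal protein genes the median was 0.0067, and no member was past 0.096 in the mean.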
